A study of Mus musculus with 23 samples.

Results

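The genes described here move glucose into the cell and turn it into lactate. They were chosen by name: every probe set (a group of short probes that reports 1 transcript on the array) that the platform annotation assigns to Slc2a1, Hk1, Hk2, Gpi1, Pfkp, Aldoa, Pgk1, Eno1, Pkm or Ldha alone. This gave 12 probe sets of 8 genes, of 12422 probe sets tested on the array, control probe sets left out. Hk2, Pfkp, Aldoa and Pkm had 2 probe sets each, and Slc2a1, Hk1, Pgk1 and Ldha had 1 each. Gpi1 and Eno1 were not analysed here, because no probe set carried their symbol alone.

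The RNA came from primary mouse embryonic fibroblasts of embryonic day e14.5, which are connective tissue cells taken straight from embryos. All 23 samples carry the same genotype label, C57/BLACK6 with ATF1 -/+, so the control arrays carry that allele too, and all cultures grew in a medium with high glucose. Cultures were starved for 48 hours in 1% dialyzed serum and then kept for 2 hours in either 1% serum (starved) or 10% serum (treated). During those 2 hours both conditions held 200 µM 4-thiouridine, a uridine analogue that enters RNA as it is made, and tritiated cytidine. RNA that had taken up the analogue was bound to an organomercurial matrix, eluted, and is referred to as newly transcribed RNA. The study also measured total RNA and amplified total RNA, which gives 6 groups of 4 arrays, except amplified starved RNA with 3. The labels tell total from amplified total RNA only by the titles, since the labelling protocol names a linear amplification for every array. In RNA of whole cultures, fewer cells of a type and less RNA per cell cannot be told apart.

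Glucose enters fibroblasts mainly through the transporter encoded by Slc2a1 (GLUT1). The hexokinases Hk1 and Hk2 trap it by phosphorylation, the platelet-type phosphofructokinase Pfkp commits it to glycolysis, and aldolase (Aldoa), phosphoglycerate kinase (Pgk1) and pyruvate kinase (Pkm) carry it on to pyruvate, which lactate dehydrogenase (Ldha) reduces to lactate. Growth factors and lack of oxygen are both known to raise transcription of these genes, the former partly through MYC and the latter through hypoxia-inducible factors (HIF), whose binding sites contain the letters ACGTG.

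The bases in front of the start are shown for the transporter Slc2a1 and the hexokinase Hk2. Both were called higher after serum only when same-numbered arrays were fitted as pairs. To set beside them, Pgk1 and Ldha are shown, whose serum responses were not called and whose stretches also hold ACGTG. Each run holds the 250 bases before the start given by RefSeq (GRCm38.p6), 5′ to 3′ on the gene's own strand. For Ldha, RefSeq gives 2 starts, of which the first is shown; the stretch before the other held none of the motifs searched. Capitals mark ACGTG on either strand (CACGT when it lies on the other strand); in the Ldha run 2 of the marked stretches are the palindrome CACGTG, the E-box that MYC and MAX bind, which holds ACGTG on both strands.
Slc2a1 chr4:119108495-119108744 (+): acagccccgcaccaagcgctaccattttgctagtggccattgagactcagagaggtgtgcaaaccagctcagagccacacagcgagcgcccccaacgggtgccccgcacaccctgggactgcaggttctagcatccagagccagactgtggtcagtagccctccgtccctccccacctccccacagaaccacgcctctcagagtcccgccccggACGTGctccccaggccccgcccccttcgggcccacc
Hk2 chr6:82774455-82774704 (-): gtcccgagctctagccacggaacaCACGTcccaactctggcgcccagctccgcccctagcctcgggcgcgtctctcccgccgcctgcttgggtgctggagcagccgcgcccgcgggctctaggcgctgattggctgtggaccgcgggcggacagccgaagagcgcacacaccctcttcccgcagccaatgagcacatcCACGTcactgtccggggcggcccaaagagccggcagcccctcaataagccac
Pgk1 chrX:106186850-106187099 (+): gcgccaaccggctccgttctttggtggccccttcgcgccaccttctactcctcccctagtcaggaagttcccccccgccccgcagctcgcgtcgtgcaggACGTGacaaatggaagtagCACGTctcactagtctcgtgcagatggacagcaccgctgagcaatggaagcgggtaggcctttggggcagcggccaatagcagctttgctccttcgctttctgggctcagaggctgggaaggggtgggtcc
Ldha chr7:46845554-46845803 (+): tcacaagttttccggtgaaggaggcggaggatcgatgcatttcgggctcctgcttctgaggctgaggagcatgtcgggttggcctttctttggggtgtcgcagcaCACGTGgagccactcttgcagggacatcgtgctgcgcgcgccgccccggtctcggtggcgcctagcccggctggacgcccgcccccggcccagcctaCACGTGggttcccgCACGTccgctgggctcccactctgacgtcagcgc

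The Slc2a1 stretch held 1 ACGTG, whose first base lies at position -36 from the start, and the Hk2 stretch held 2, at -226 and -52. The Pgk1 stretch also held 2, at -150 and -131, and the Ldha stretch held 5 when both strands of its E-boxes are counted. RefSeq lists 13 starts for the 8 genes, of which 7 had ACGTG within 250 bases upstream, against 16.6% of 32851 mouse promoters cut in the same way. CACGTG was found at 1 of the 13 (6.02% of all). GGGCGG, the GC box of SP factors, was found at 8 (32.7% of all), TGACGT, most of the cyclic AMP response element, at 2 (6.47%), and TTCCGG, an ETS core, at 2 (12.0%), all on both strands. TGACGT can overlap ACGTG by 4 letters, as it does near -52 in Hk2. These stretches held 49.6 to 69.6% G and C, against a median of 52.4% over all promoters, and several starts of 1 gene share bases. Neither of the 2 Hk1 starts had any of these motifs within the window. The letters thus stood before members that were called and before members that were not, and a match is a description of sequence only.

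Levels are given as log2(normalized intensity + 16), where arrays were quantile normalized, so that 4 is the floor and a difference of 1 is a doubling well above it. Serum responses are treated minus starved on this scale, ± the SE of the fit, and a probe set is called at an adjusted p (Benjamini-Hochberg over 12422 probe sets, limma) below 0.05. Same-numbered starved and treated arrays deviated together in newly transcribed and in total RNA, so their serum responses were fitted both without a block and with the replicate number as one. The fit without a block was the main one, and the paired fit was an alternative whose pairing came from these same arrays. Median deposited signals per array ran from 7.3 to 75.2. Of 11 fibroblast markers measured, 10 lay above the median level of all probe sets in each kind of RNA. Of 10 macrophage markers, 7 to 9 did. For epithelium, endothelium, skeletal muscle, erythroid and neural cells, the count ran from 0 of 4 erythroid to 2 of 6 neural markers. None of the macrophage markers was called with serum, while 1 fibroblast, 1 muscle and 1 neural marker were called in newly transcribed RNA and 1 neural marker in total RNA with pairs as a block, and the part of other cells in the results below was not tested. On control transcripts the 3′ probe set of GAPDH exceeded the 5′ one by 2.16 ± 0.65 (SD, n = 8) in newly transcribed RNA, 1.55 ± 0.60 (n = 7) in amplified RNA and -0.20 ± 0.11 (n = 8) in total RNA. For beta-actin the same excess was 2.37 ± 0.55, 2.27 ± 0.44 and 0.35 ± 0.17. By whole profiles, arrays of newly transcribed and amplified RNA were also divided into 2 clusters, a number set beforehand. Each cluster held starved and treated arrays. Cluster 1 held newly transcribed replicates 1 and 4 of both conditions, amplified starved replicates 1 and 3 and amplified treated replicates 1 and 4. Cluster 2 held the others.

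Slc2a1, the glucose transporter, was higher after serum in every pair of arrays. In newly transcribed RNA its probe set 93738_at stood at 6.75, 7.68, 7.43 and 6.67 in starved replicates 1 to 4 and at 7.88, 8.51, 9.01 and 8.27 in treated ones. The 2 groups did not overlap. In total RNA the starved levels were 6.40, 7.56, 7.20 and 6.98 and the treated levels 7.38, 9.00, 8.61 and 8.46, and the groups overlapped because treated replicate 1 lay below starved replicate 2. With replicates as pairs, Slc2a1 rose by 1.28 ± 0.16 in newly transcribed RNA (2.44-fold, adjusted p = 0.030, higher in 4 of 4 pairs) and by 1.33 ± 0.12 in total RNA (2.52-fold, adjusted p = 0.022, 4 of 4 pairs). Without the block the same differences had SEs of 0.31 and 0.37 and adjusted p of 0.47 and 0.55, so neither was called. In amplified RNA the levels were 4.91, 6.64 and 6.23 starved and 7.03, 8.12, 7.62 and 7.33 treated, again without overlap, a difference of 1.60 ± 0.46 that was not called (adjusted p = 1.00).

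Hk2, the hexokinase that responds to insulin and growth factors in many tissues, moved with serum much as the transporter did. Its probe set 94375_at stood at 7.81, 7.46, 7.03 and 7.69 in starved and at 9.08, 8.51, 8.58 and 8.38 in treated newly transcribed RNA. In total RNA the levels were 7.50, 6.97, 7.24 and 7.85 starved and 8.45, 8.27, 8.66 and 8.80 treated. Starved and treated arrays did not overlap in either kind of RNA. As pairs, Hk2 rose by 1.14 ± 0.16 in newly transcribed RNA (2.21-fold, adjusted p = 0.038) and by 1.16 ± 0.12 in total RNA (2.24-fold, adjusted p = 0.029), in 4 of 4 pairs each. Without the block the SEs were 0.22 and 0.20 and the adjusted p 0.32 and 0.14. In amplified RNA the levels were 6.07, 6.19 and 6.93 starved and 6.44, 7.68, 6.996 and 7.78 treated, which overlap, with a difference of 0.83 ± 0.39 (adjusted p = 1.00). The other Hk2 probe set, 161313_at, stayed between 4.04 and 4.79 on all 23 arrays, next to the floor of the scale, and its differences ran from -0.14 to -0.02.

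**Figure D1:**
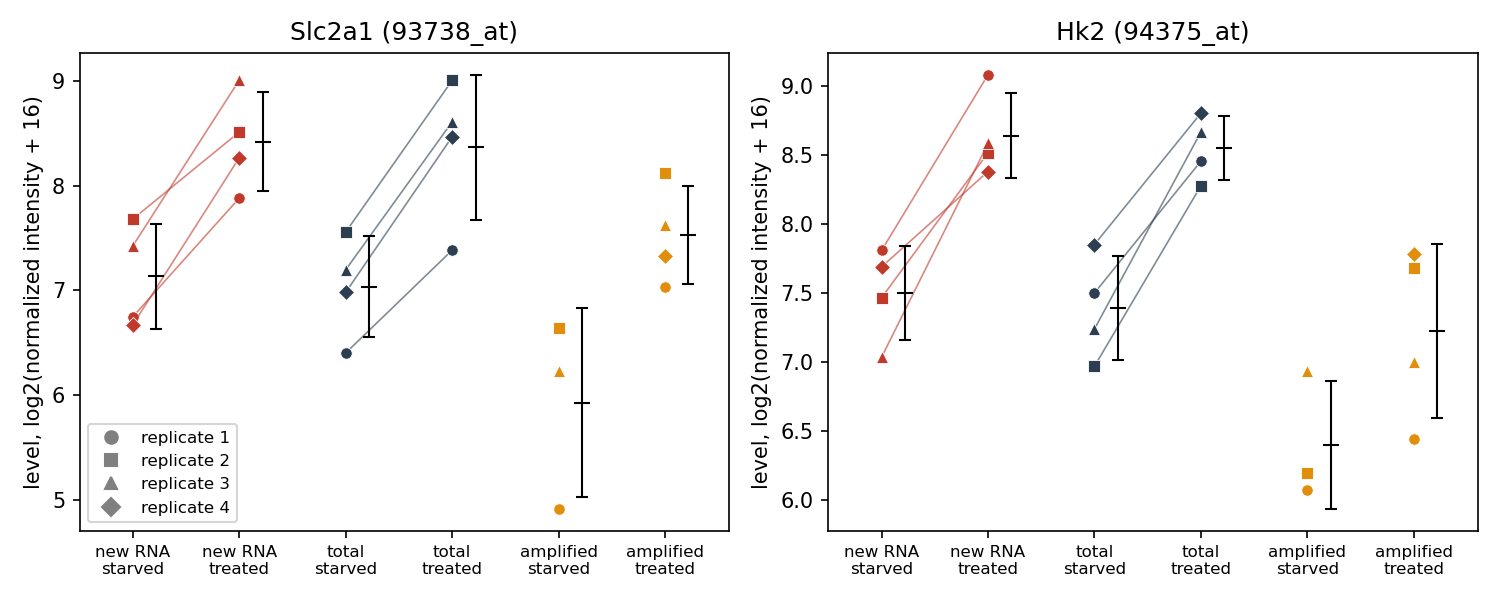
Level of Slc2a1 and of Hk2 on each array, as log2(normalized intensity + 16), by kind of RNA (new RNA is newly transcribed RNA) and serum condition; symbols mark replicate numbers, lines join the numbers that pair, and bars give mean ± SD. In newly transcribed RNA the lowest treated Slc2a1 array, at 7.88, lies above the highest starved one, at 7.68, and every joined pair rises for both genes.

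These 2 were the members called with serum, in both paired fits. In newly transcribed RNA the paired fit called 0.91% of all probe sets higher and 0.829% lower, and in total RNA 0.459% higher. The fit without the block called 0 of 12422 probe sets in newly transcribed RNA (0%; 800 at an unadjusted p under 0.05) and 15 in total RNA (0.121%; no member). Treated levels lay wholly above starved ones for 2 of 12 member probe sets in newly transcribed RNA (2.13% of all), for 1, Hk2, in total RNA (1.52% of all) and for 1, Slc2a1, in amplified RNA (1.26% of all). In amplified RNA 0 probe sets were called in all (0%; 175 at an unadjusted p under 0.05), so the response there can only be given as values. The median response of the 12 member probe sets was 0.24 in newly transcribed RNA, against 0.01 over all probe sets, 0.08 in total RNA, against -0.01, and 0.20 in amplified RNA, against -0.01. Positive responses numbered 10, 8 and 10 of 12 in the same order, against 51.0, 45.7 and 48.6% of all probe sets. Counting only the brightest probe set of each gene, they numbered 7, 6 and 7 of 8.

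The calls of Slc2a1 and Hk2 needed all 4 pairs. Without any 1 pair the rise of Slc2a1 stayed between 1.18 and 1.44 in newly transcribed and 1.28 and 1.45 in total RNA, and that of Hk2 between 1.01 and 1.29 and between 1.07 and 1.23, but the adjusted p rose to 0.062 to 0.19 and 0.052 to 0.18. With values as deposited, where the median probe set shifted by -0.18 in newly transcribed and 0.21 in total RNA, the responses were 0.82 and 1.60 for Slc2a1 and 0.71 and 1.41 for Hk2, and neither was called (paired adjusted p 0.20 to 0.53). When the pseudocount was 1 they were not called either (paired adjusted p 0.11 to 0.17).

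The responses of both genes were of like size in newly transcribed and total RNA. The response in newly transcribed minus that in total RNA was -0.05 for Slc2a1 and -0.02 for Hk2. With pairs as a block the 95% intervals ran from -0.52 to 0.42 and from -0.49 to 0.45, and without it from -1.14 to 1.05 and from -0.69 to 0.65. No member was called in this comparison, in which 0 probe sets were called in all (0%; 299 at an unadjusted p under 0.05). A miss of the threshold does not show equal responses, and the intervals leave room for differences of up to 0.52 with the block and 1.14 without it.

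Hk1, the hexokinase that most tissues express, had a smaller response. In newly transcribed RNA it stood at 6.61, 6.85, 6.74 and 7.24 starved and 7.06, 7.68, 7.64 and 7.52 treated, a difference of 0.61 ± 0.14 as pairs (adjusted p = 0.085, 4 of 4 pairs higher). With the dimmer 50% of probe sets left out of the paired fit, the same difference had an adjusted p of 0.042. Without the block its SE was 0.20 and its adjusted p 0.64, with all probe sets kept. In total RNA its levels were 11.25, 11.02, 10.32 and 9.97 starved and 11.03, 11.29, 10.26 and 11.07 treated. The difference as pairs was 0.27 ± 0.23 (adjusted p = 0.76). The starved and treated ranges overlapped in both kinds of RNA.

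The aldolase Aldoa gave values of like size to those of Hk1 in newly transcribed RNA. Its probe set 161889_f_at stood at 8.14, 9.55, 9.03 and 8.39 starved and 8.73, 10.25, 9.96 and 8.70 treated. It was higher in 4 of 4 pairs, by 0.63 ± 0.14 with pairs as a block (adjusted p = 0.074). With dimmer probe sets left out of that fit the adjusted p was 0.034. The probe set 160090_f_at stood at 8.61, 10.31, 10.05 and 8.45 starved and 8.97, 10.85, 10.79 and 8.65 treated. Its difference as pairs was 0.46 ± 0.13 (adjusted p = 0.12, 4 of 4 pairs). Without the block the SEs were 0.46 for 161889_f_at and 0.67 for 160090_f_at, and neither was called. Replicates 2 and 3 lay above replicates 1 and 4 in both conditions, by more than the serum difference. In total RNA the 2 probe sets differed by 0.13 ± 0.09 and -0.05 ± 0.10 as pairs. The excess of the newly transcribed over the total response was 0.51 ± 0.17 and 0.51 ± 0.16 as pairs, which was not called (adjusted p = 0.35 for both). Both identifiers end in f_at, the maker's mark for probes that can match related sequences, so other aldolase sequences may contribute.

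Pfkp went different ways in the kinds of RNA, within small differences. Its brighter probe set, 97834_g_at, stood at 6.37, 7.20, 6.88 and 6.54 in starved newly transcribed RNA and at 6.18, 6.42, 6.77 and 6.54 in treated. It was lower in 4 of 4 pairs, though by less than the printed digits in replicate 4. With pairs as a block the difference was -0.27 ± 0.16 (adjusted p = 0.38). In total RNA it was higher in 4 of 4 pairs, from 5.31, 6.06, 6.16 and 6.38 to 5.62, 6.39, 6.24 and 6.52. With the block that difference was 0.21 ± 0.09 (adjusted p = 0.50). Without the block the SEs were 0.22 in newly transcribed and 0.27 in total RNA, and neither difference was called. The difference of these responses was -0.49 ± 0.19 as pairs (adjusted p = 0.41). The groups overlapped in each kind of RNA. The dimmer probe set 97833_at gave 0.09 ± 0.19 and -0.03 ± 0.09 as pairs.

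The lower part of the pathway showed no call with serum in either fit. Values are from the paired fit unless said otherwise. Pgk1 differed by 0.07 ± 0.13 in newly transcribed RNA and 0.08 ± 0.14 in total RNA, with 95% intervals from -0.26 to 0.39 and from -0.26 to 0.42. The brighter Pkm probe set, 96066_s_at, differed by 0.05 ± 0.15 and 0.06 ± 0.11, and the other, 162032_f_at, by 0.40 ± 0.33 and 0.08 ± 0.28. Ldha, whose total RNA levels ran only from 11.21 to 11.47 over all 8 arrays, differed by 0.04 ± 0.12 and -0.02 ± 0.09. For Ldha in total RNA the 95% interval of the difference was -0.23 to 0.19. Without the block the intervals in newly transcribed RNA were far wider for Pkm and Ldha. They ran from -1.79 to 1.89 for Pkm 96066_s_at (SE 0.79) and from -0.89 to 0.97 for Ldha (SE 0.40). For Pgk1 the interval without the block was -0.37 to 0.51 there.

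**Figure D2:**
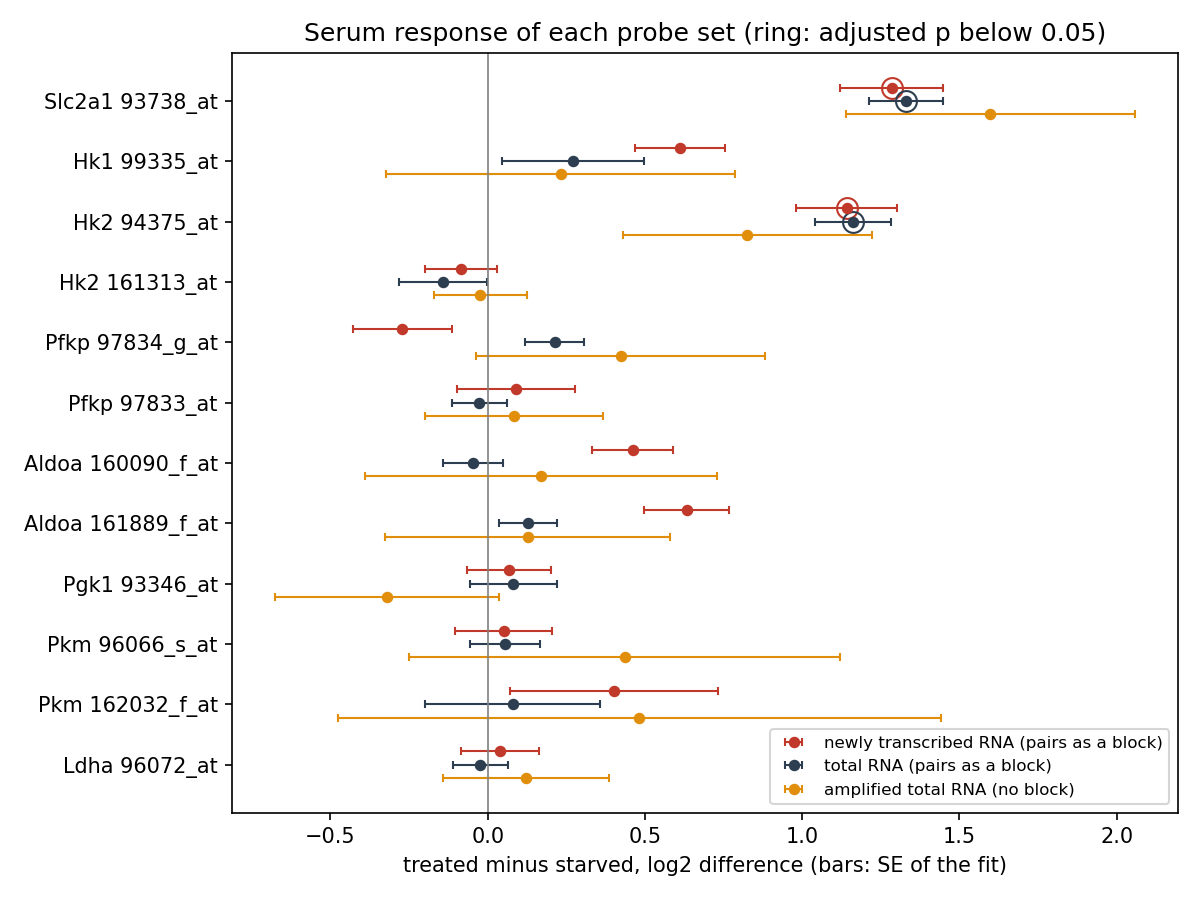
Serum response (treated minus starved, log2) of each member probe set, ± SE of the fit, in newly transcribed and total RNA with replicate pairs as a block and in amplified total RNA without it; a ring marks an adjusted p below 0.05. Slc2a1 and the Hk2 probe set 94375_at carry rings in newly transcribed RNA (1.28 and 1.14) and total RNA (1.33 and 1.16), and the other 10 probe sets carry none.

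Hk1, Hk2, Slc2a1, Pgk1 and 1 Pkm probe set also differed between kinds of RNA, and between newly transcribed and amplified RNA the 2 hexokinases went opposite ways. The Hk1 group means were 6.86 ± 0.27 (SD) starved and 7.47 ± 0.28 treated in newly transcribed RNA (n = 4 each), 8.75 ± 0.81 (n = 3) and 8.98 ± 0.84 (n = 4) in amplified RNA, and 10.64 ± 0.60 and 10.91 ± 0.45 in total RNA (n = 4 each). No newly transcribed array, with a highest level of 7.68, reached the lowest amplified one, 7.85, or the lowest total one, 9.97. The starved and treated means next to each other in this order lay within their SDs in amplified and total RNA. Hk1 was lower in newly transcribed than in amplified RNA by -1.68 ± 0.28 (adjusted p = 0.00089), with groups that did not overlap (3.61% of all probe sets lay apart in this direction). It was also lower in amplified than in unamplified total RNA, by -1.92 ± 0.32 (adjusted p = 0.00072).

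Hk2 and Slc2a1 were instead lowest in amplified RNA within each serum condition. The Hk2 means ran from 6.40 ± 0.46 (amplified starved, n = 3), 7.22 ± 0.63 (amplified treated), 7.39 ± 0.38 (total starved) and 7.50 ± 0.34 (newly transcribed starved) to 8.55 ± 0.23 (total treated) and 8.64 ± 0.31 (newly transcribed treated, n = 4 each). The Slc2a1 means ran from 5.93 ± 0.90 (amplified starved), 7.03 ± 0.48 (total starved), 7.13 ± 0.50 (newly transcribed starved) and 7.53 ± 0.46 (amplified treated) to 8.36 ± 0.69 (total treated) and 8.42 ± 0.47 (newly transcribed treated). In both orders newly transcribed and total RNA of the same serum condition were neighbours and differed by less than their SDs. Against amplified RNA, newly transcribed RNA was higher by 1.27 ± 0.22 for Hk2 (adjusted p = 0.0011) and by 1.03 ± 0.28 for Slc2a1 (adjusted p = 0.017). Amplified RNA lay below unamplified total RNA by -1.17 ± 0.22 for Hk2 (adjusted p = 0.0017) and by -0.96 ± 0.30 for Slc2a1 (adjusted p = 0.033). With values as deposited, the Hk1 call between amplified and total RNA was kept (-2.13, adjusted p = 0.010), and the other 5 calls of Hk1, Hk2 and Slc2a1 between kinds of RNA were lost: newly transcribed against amplified RNA gave -1.23 for Hk1 (adjusted p = 0.13), 1.60 for Hk2 (0.091) and 1.25 for Slc2a1 (0.21), and amplified against total RNA gave -1.28 for Hk2 (0.19) and -1.01 for Slc2a1 (0.27). The Slc2a1 difference between amplified and total RNA also lost its call when arrays were scaled to 1 median (-0.74, adjusted p = 0.078), and without any 1 of 9 arrays: amplified starved replicate 1, amplified treated replicates 1 and 4, and total starved and total treated replicates 2, 3 and 4. Without these it ran from -0.96 to -0.74, with adjusted p of 0.053 to 0.071.

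**Figure D3:**
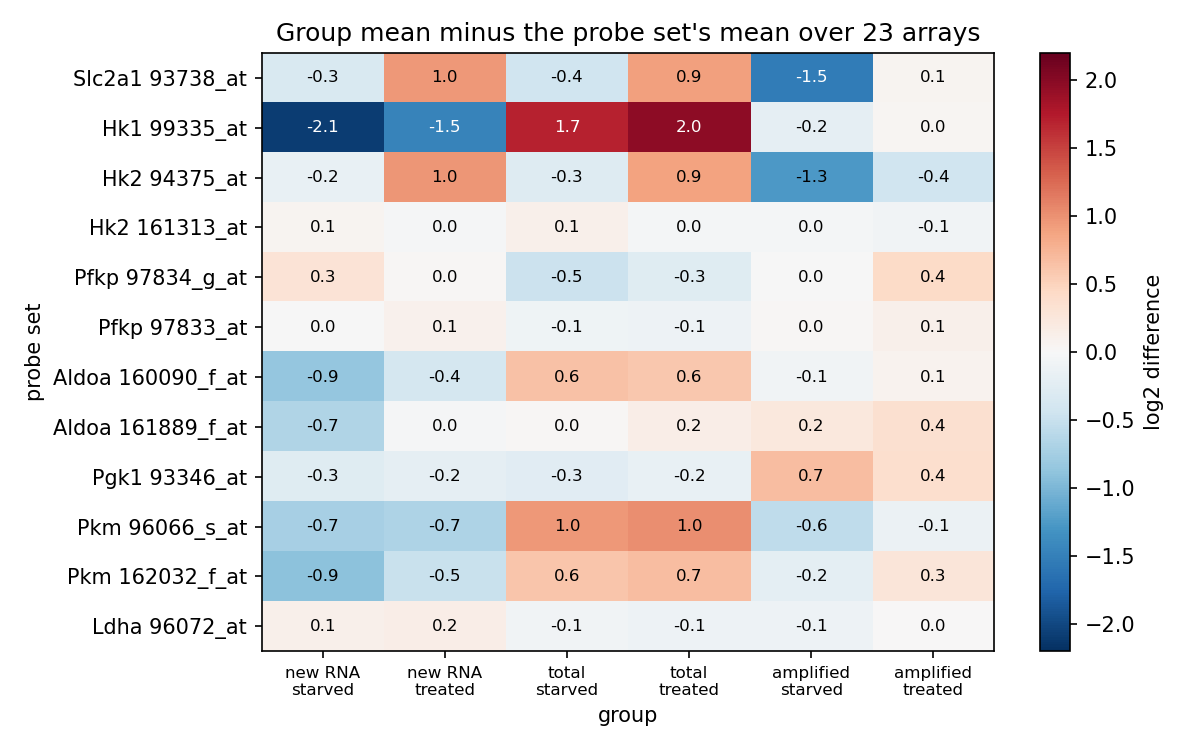
Mean of each group minus the mean of that probe set over all 23 arrays (log2 scale), for the 12 member probe sets in rows and the 6 groups in columns (new RNA is newly transcribed RNA); red is above and blue below the probe set's own mean. Hk1 runs from blue in newly transcribed RNA (group means 6.86 and 7.47) to red in total RNA (10.64 and 10.91), while Slc2a1 and Hk2 94375_at are red in treated and not in starved newly transcribed and total RNA.

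Pgk1, the phosphoglycerate kinase, was highest in amplified RNA. Its levels there were 11.57, 10.52 and 10.79 starved and 11.33, 10.50, 10.21 and 10.55 treated, while the 16 other arrays ran from 9.68 to 10.55, so the ranges overlapped. It was lower in newly transcribed than in amplified RNA by -0.74 ± 0.20 (adjusted p = 0.017) and higher in amplified than in unamplified total RNA by 0.72 ± 0.21 (adjusted p = 0.026). That second call was lost without amplified starved replicate 1 (0.58, adjusted p = 0.057), amplified treated replicate 1 (0.62, 0.051), total starved replicate 3 (0.68, 0.051), total treated replicate 3 (0.67, 0.056) or total starved replicate 4 (0.66, 0.050). With values as deposited both Pgk1 calls were lost (-0.46, adjusted p = 0.47, and 0.83, adjusted p = 0.19). Pkm 96066_s_at was lower in amplified than in unamplified total RNA by -1.32 ± 0.33 (adjusted p = 0.012), and 162032_f_at by -0.61 ± 0.51 (adjusted p = 0.45); the first was not called with values as deposited (-1.54, adjusted p = 0.13). Ldha differed by 0.18 ± 0.25 between newly transcribed and amplified RNA and by 0.05 ± 0.13 between amplified and total RNA. The latter became 0.50 with arrays scaled to 1 median (adjusted p = 0.018).

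Between newly transcribed and amplified RNA, 2 of 12 member probe sets were called higher (8.57% of all) and 2 lower (9.12% of all). The Aldoa probe sets 160090_f_at and 161889_f_at differed there by -0.61 ± 0.45 and -0.62 ± 0.33 without a call (adjusted p = 0.42 and 0.24). With the array cluster as a block both were called lower (-0.74, adjusted p = 0.0010, and -0.71, adjusted p = 0.0027). Between amplified and unamplified total RNA, 1 was called higher (10.5% of all) and 4 lower (9.76% of all). Over all probe sets the latter comparison called 1303 higher and 1213 lower, and 1686 and 803 with arrays scaled to 1 median. With values as deposited the former called 69 higher and 16 lower, and the latter 24 and 329. The 3′ excess of both control transcripts, given above, differed between amplified and total RNA. Between newly transcribed and amplified RNA the GAPDH mean was higher in newly transcribed RNA, but the ranges over arrays overlapped for both transcripts. The beta-actin means lay within their SDs. Whether the 3′ excess differed between these kinds of RNA was not tested. The part of this excess in the differences was not tested.

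**Figure D4:**
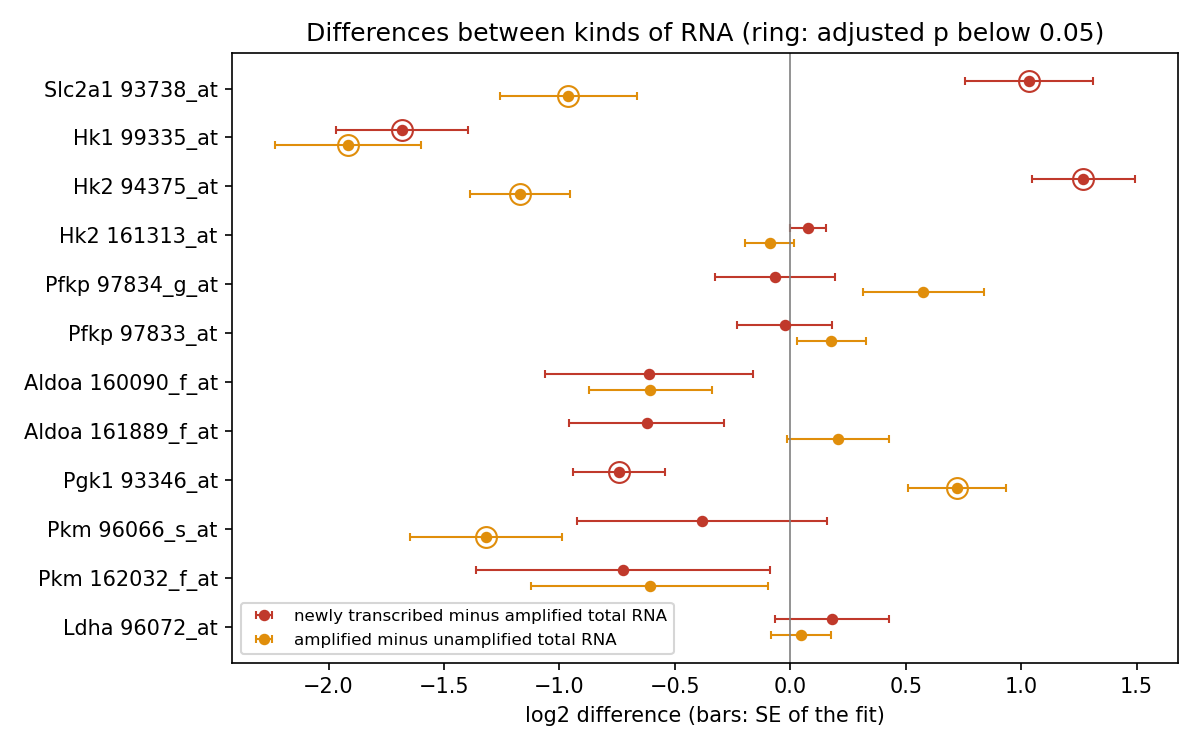
Difference between kinds of RNA for each member probe set (log2, ± SE of the fit, serum condition as a covariate): newly transcribed minus amplified total RNA, and amplified minus unamplified total RNA; a ring marks an adjusted p below 0.05. Hk1 lies left of 0 in both (-1.68 and -1.92), whereas Slc2a1 and Hk2 94375_at lie right of 0 in the first and left in the second.

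Part of the family differed more between the array clusters than with serum. The clusters were drawn from the levels of these same arrays, members included, so the differences between them are a description only. In newly transcribed RNA, 5 of 12 member probe sets lay wholly higher in cluster 2 than in cluster 1 (14.4% of all probe sets did): both of Aldoa, by 1.83 and 1.21 in the means, Pkm 96066_s_at by 1.96, Ldha by 1.04 and Pfkp 97833_at by 0.61. Pkm 96066_s_at stood at 9.64 and 8.15 in starved replicates 1 and 4 and at 10.44 and 10.72 in replicates 2 and 3, and at 9.28 and 8.07 against 10.75 and 11.06 in treated ones. Ldha stood at 10.73 and 11.17 against 12.12 and 12.18 starved, and at 10.95 and 11.36 against 12.11 and 11.96 treated. In amplified RNA 5 also lay wholly higher in cluster 2 (17.6% of all), both probe sets of Aldoa and of Pkm and Pfkp 97833_at, and Pgk1 lay wholly lower (16.2% of all). Within the clusters the serum difference of Slc2a1 in newly transcribed RNA was 1.36 (cluster 1) and 1.21 (cluster 2), and that of Hk2 0.98 and 1.30, from 2 arrays per condition each. For Aldoa it was 0.28 and 0.64 (160090_f_at) and 0.45 and 0.82 (161889_f_at), from as many arrays.

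**Figure D5:**
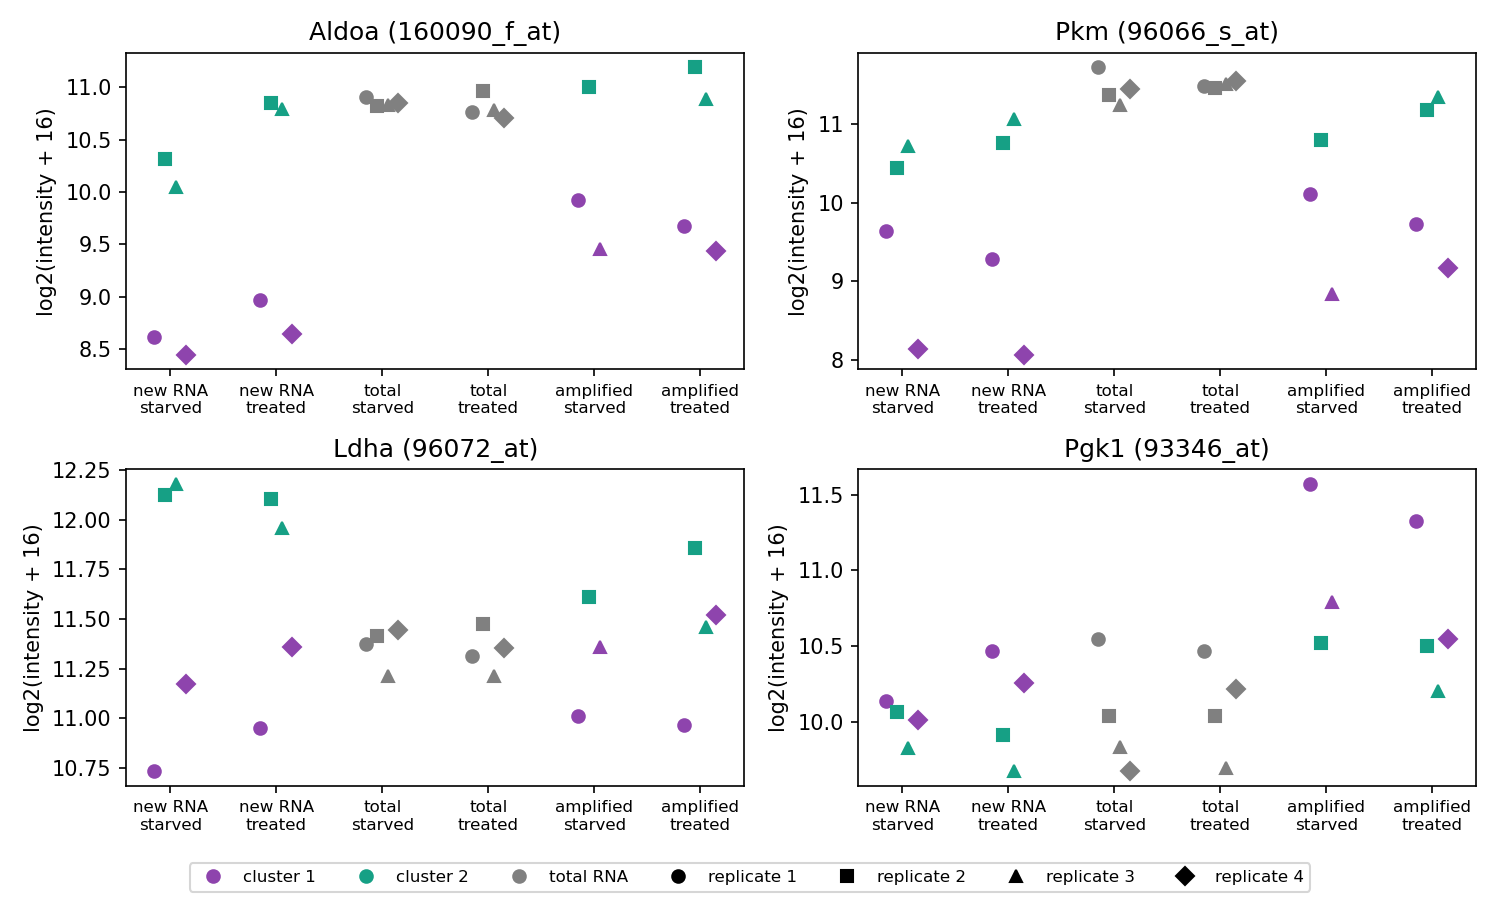
Level of 4 members on each array, as log2(normalized intensity + 16), by kind of RNA (new RNA is newly transcribed RNA) and serum condition; colours mark the 2 array clusters, grey the total RNA arrays, and symbols the replicate numbers. For Aldoa, Pkm and Ldha the cluster 2 arrays of newly transcribed RNA lie above all cluster 1 arrays (10.05 and upwards against 8.97 and below for Aldoa), while the total RNA arrays of Aldoa stay between 10.71 and 10.96.

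Where a gene had 2 probe sets, they moved together for Aldoa (Pearson r 0.85 over the 23 arrays, and 0.93 after the mean of each kind of RNA was removed), Pkm (0.89 and 0.90) and Pfkp (0.67 and 0.65). For Hk2, whose 161313_at lay near the floor, r was -0.17 and -0.44. These correlations are across arrays that share their cultures' preparation and normalization and are given as a description.

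The probe sets most like Slc2a1 over the 23 arrays, after the mean of each kind of RNA was removed, were Il15ra (r 0.94), Nfatc1 (0.94), Csf1 (0.91), Gjb2 (0.90) and Sphk1 (0.88), among 5663 candidates of at least median level. For Hk2 they were Errfi1 (0.83), Srxn1 (0.82), Sema7a (0.82), Muc13 (0.80) and Ereg (0.80). Slc2a1 and Hk2 correlated with each other at 0.65, and Hk2 ranked 133rd among the candidates for Slc2a1. Arrays of 1 replicate share more than serum, and these values say nothing of shared control.

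The genes around the pathway gave few calls with serum. Of the 5 other glucose transporters, 14 other glycolysis genes, 8 genes that control flux, 2 of lactate export, 7 of gluconeogenesis and 6 of the pentose phosphate pathway that were measured, 0 were called in newly transcribed or total RNA in either fit. At an unadjusted p under 0.05, counting 1 probe set per gene, the paired fit in newly transcribed RNA had 0, 3, 3, 0, 2 and 0 of them, where 21.7% of all probe sets passed. The glycolytic enzymes Tpi1 (0.10 ± 0.13) and Pgam1 (-0.02 ± 0.11) and the lactate transporter's partner Bsg (0.39 ± 0.29) gave such uncalled values there, and so did Pdha1, a subunit of pyruvate dehydrogenase (-0.44 ± 0.24).

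Of 8 measured genes of glycogen metabolism, 3 fell in newly transcribed RNA with pairs as a block (0.829% of all probe sets did), and 0 rose (0.91% of all). Gbe1, the branching enzyme, fell by 0.84 ± 0.12 (adjusted p = 0.038), Pgm1, a phosphoglucomutase, by 0.87 ± 0.15 (adjusted p = 0.049), and Pygb, a glycogen phosphorylase, by 0.71 ± 0.11 (adjusted p = 0.042), each lower in 4 of 4 pairs. In total RNA the same genes differed by -0.17 ± 0.15, -0.25 ± 0.11 and -0.10 ± 0.19, and the difference between the 2 kinds of RNA was not called (adjusted p = 0.34 to 0.39 as pairs). The median response of the 8 genes was -0.25 in newly transcribed and -0.08 in total RNA. A low median was not particular to them: the 8 measured genes that control flux, without a call, had -0.41 and -0.09. Gbe1 lay near the floor, at a mean level of 4.95. Like the calls of Slc2a1 and Hk2, these 3 were lost without any 1 pair (-0.98 to -0.66, adjusted p = 0.062 to 0.23), without the block, without scaling of the arrays, and when the pseudocount was 1, which took Gbe1 to -1.98.

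Among 17 measured regulators and other genes under the same control, Myc alone was called with serum, and only with pairs as a block. It rose by 1.05 ± 0.11 in newly transcribed RNA (adjusted p = 0.026) and by 0.95 ± 0.12 in total RNA (adjusted p = 0.047), in 4 of 4 pairs each. These fits called 0.91% and 0.459% of all probe sets higher. Without the block Myc was not called in either kind. With the block, its call was also lost with values as deposited (0.56 and 1.13, adjusted p = 0.28 and 0.53). The same held for a pseudocount of 1 (1.15 and 1.18, adjusted p = 0.11 and 0.21). Without any 1 pair Myc stood at 1.03 to 1.09 and 0.86 to 1.03 with no call (adjusted p = 0.062 to 0.29). Hif1a, which encodes the oxygen-regulated subunit of HIF-1, differed by -0.39 ± 0.16 and -0.11 ± 0.08 with pairs as a block (probe set 98629_f_at, adjusted p = 0.21 and 0.72). Vegfa, a HIF target that encodes an endothelial growth factor, was higher in 4 of 4 pairs of both kinds. With pairs as a block it differed by 2.02 ± 0.36 and 1.95 ± 0.31 without a call (adjusted p = 0.053 and 0.095). Without the block Vegfa was not called either. Egln2, a prolyl hydroxylase that marks HIF for breakdown, differed by -0.19 ± 0.15 and -0.22 ± 0.12. Genes around the pathway were also called between newly transcribed and amplified RNA, here without a block. Called higher and lower were 2 and 2 of 14 other glycolysis genes and 1 and 2 of 8 that control flux. Lactate export had 0 and 1 of 2, gluconeogenesis 0 and 2 of 7, and pentose phosphate 0 and 2 of 6. Glycogen had 1 and 2 of 8, the regulators 4 and 1 of 17, and the other transporters 0 and 0 of 5. Of all probe sets, 8.57% were called higher and 9.12% lower. Values of 5 of these genes follow. Ldhb, the heart-type lactate dehydrogenase subunit, was lower by -1.82 ± 0.18 (adjusted p = 1.3e-05). Pfkm, the muscle phosphofructokinase, was lower by -1.09 ± 0.18 (adjusted p = 0.00072) and Pdk1, a kinase that shuts off pyruvate dehydrogenase, by -1.35 ± 0.27 (adjusted p = 0.0030). Myc was higher there by 1.30 ± 0.25 (adjusted p = 0.0019) and Eno2, an enolase, by 1.11 ± 0.23 (adjusted p = 0.0035). With values as deposited only Eno2 of these 5 was still called (1.64, adjusted p = 0.042).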

How the data were processed

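Affymetrix arrays measured RNA of mouse embryonic fibroblasts in 6 groups (4 arrays each, amplified starved 3), grouped by their titles. The deposited values are linear signal intensities of 12488 probe sets (0 to 11017.1, 42 at 0) on each of 23 arrays; the authors' summarising software and scaling are not given in the sources used here. Per the labels' protocols, RNA was reverse transcribed, linearly amplified and labelled with biotin by a T7 method. Names came from the platform annotation: 10833 of 12422 probe sets had 1 symbol (8251 genes), 396 several and 1193 none listed, with 66 controls left out. Promoter sequence came from RefSeq (GRCm38.p6).

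Because array medians spanned 1.97 on the log2(value + 16) scale, arrays were quantile normalized and log2(value + 16) was taken, which understates changes of dim probe sets. Models were fitted with limma 3.58.1 (R 4.3.3, lmFit and eBayes, two-sided), each on the arrays of the kinds compared, in 6 comparisons. They were tried on simulated data whose noise was independent between arrays. Those data held no shared replicate or cluster effect, so the trial does not show how the models behave with such effects. Same-numbered starved and treated arrays were taken as pairs where every correlation of their deviations exceeded 0.1: 0.70 to 0.80 in newly transcribed and 0.23 to 0.70 in total RNA. The titles call the numbers biological replicates and do not say what a number shares, so the pairing comes from the data; amplified replicate 3 gave -0.47, and no pairing was taken there or between kinds of RNA. P-values measure the spread between these arrays, whose number limits the precision. Every member probe set is described. Genes of the wider pathway are named where called with serum or, for up to 6, where brightest. Of those called between kinds of RNA only some are named. Alternatives were no scaling, scaling to 1 median, a pseudocount of 1, leaving out the dimmer probe sets, the replicate or array cluster as a block, and leaving out each array or pair. The combinations of the replicate block with another scaling, pseudocount or filter were chosen after seeing the data. Members, gene lists and motifs were chosen with earlier results of these data known.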

Additional observations from a re-analysis of the deposited data

Results flagged for a closer look

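Of 60 groups of 4 arrays, 2 held an array far from the other 3, a gap that chance gives in about 1 group in 20. Hk2 161313_at had its highest total starved level in replicate 2, at 4.79, where the other 3 arrays stood at 4.05 to 4.14; this probe set lay near the floor of the scale throughout. Pfkp 97834_g_at had its lowest amplified treated level in replicate 1, at 5.97, where the others stood at 7.08 to 7.24.

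The serum response of Pfkp 97834_g_at ran in opposite directions in different kinds of RNA, lower in 4 of 4 pairs of newly transcribed RNA and higher in 4 of 4 pairs of total RNA. In replicate 4 of newly transcribed RNA the difference was only -0.0078. The other Pfkp probe set, 97833_at, was higher in 2 of 4 pairs in both of these kinds. For 97834_g_at the response in newly transcribed minus that in total RNA was -0.49 (adjusted p = 0.41 with pairs as a block and 1.00 without it). It was also higher in 3 of 3 same-numbered arrays of amplified RNA, where the mean response of the same-numbered arrays exceeded that in newly transcribed RNA by 0.62; this difference was not tested.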

How the results depend on the processing

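In the fits without a block, the replicate block raised the calls in newly transcribed RNA from 0 to 2 members and from 0 to 216 probe sets, and in total RNA from 0 to 2 members and from 15 to 60 probe sets; leaving out 1 array gave 0 to 1 and 1 to 19 probe sets, with 0 members. In total RNA without the block, values as deposited gave 2 calls, a pseudocount of 1 gave 7 and leaving out dimmer probe sets 25. With the replicate block, values as deposited or a pseudocount of 1 gave 0 members and 0 probe sets in both kinds of RNA. Leaving out dimmer probe sets gave 4 members and 728 probe sets in newly transcribed RNA and 134 probe sets in total RNA, and scaling to 1 median left 2 members called in each. Without 1 pair, the block gave 0 members and 0 to 25 probe sets in newly transcribed and 0 to 10 in total RNA. In amplified RNA and for the difference of responses, no alternative called a probe set, and the replicate block gave 0 there too. Same-numbered arrays correlated at -0.39 to 0.73 between newly transcribed and amplified RNA and at 0.07 to 0.31 between amplified and total RNA, so numbers were not taken as pairs there. Between newly transcribed and amplified RNA, values as deposited gave 0 members and 85 probe sets (main 4 and 2198), the replicate block 3479, with Aldoa 161889_f_at among them (-0.55, adjusted p = 0.032), and the array cluster as a block 3909. Between amplified and total RNA, values as deposited gave 1 member and 353 probe sets (main 5 and 2516), the replicate block 6 members, and leaving out 1 array 3 to 6 members. Where a call changed, the cause was not tested. Over 1436 refits of single member probe sets, 1375 stayed on the same side of the threshold, 47 lost and 14 gained a call, 0 called values turned sign, and 143 uncalled ones did. Dimness limits Hk2 161313_at and Pfkp 97833_at, which lie below the median signal.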
